A study of Mus musculus with 4 samples.

Results

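Integrin subunit genes of T cells were followed in RNA-seq counts of CD4+ T cells sorted from the spleens of C57BL/6 mice. The set held 10 genes, *Itgal*, *Itgb2*, *Itga4*, *Itgb1*, *Itgb7*, *Itgae*, *Itgav*, *Itgb3*, *Itgb8* and *Itga6*, chosen by name as the subunits that T cells are known for and matched on the gene symbol of the count tables, which listed 55367 symbols. All 10 were found and all 10 passed the filter on low counts, which 12403 genes passed. The labels gave 2 libraries of wild-type (WT) cells, WT 1 and WT 2, and 2 libraries of *Satb1* conditional knockout (cKO) cells, cKO 1 and cKO 2. SATB1 is a nuclear protein that organizes chromatin in T lineage cells. The study's methods describe *Satb1* F/F mice crossed to *Thpok-cre*, which acts once thymocytes commit to the CD4 lineage. The series' design text also lists an *E8I-cre* cross, and the sample labels themselves name no Cre. For its RNA-seq of CD4+ populations, the study's figure legend names *Thpok-cre*. Ages of the individual mice and a Cre-only control were not given in the labels. The labels do not name the mouse behind a library, while the study calls its replicates of these cells biological. The p-values here set a difference against the spread between 2 libraries of each genotype. For each gene, edgeR steadies that spread with the spread of the other tested genes.

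Integrins are surface receptors made of 1 alpha and 1 beta chain, and a chain that finds no partner is retained inside the cell. They bind adhesion molecules on other cells or proteins of the extracellular matrix, and signals from inside the cell switch them from a weak to a strong binding state through talin and kindlin. In T cells they govern arrest on vessel walls, contact with antigen-presenting cells and residence in tissues, and those that pair the alphaV chain with a beta chain can also release active TGF-beta from its latent complex.

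Library totals over genes were 6555699 (WT 1), 4495902 (WT 2), 5372419 (cKO 1) and 4628467 (cKO 2). A count of 3, taken as the floor, equals 0.459 to 0.672 CPM, the count per 1000000 counts of a library after edgeR's TMM adjustment (trimmed mean of M values) of library size. *Satb1* itself had 5677, 4390, 4958 and 3986 counts in WT 1, WT 2, cKO 1 and cKO 2, a log2 fold change of -0.05 (SE 0.12, adjusted p = 0.877). Its whole-gene count did not separate the genotypes, and a count over all exons does not test the deleted part of the gene, so WT and cKO are used below as the labels give them. *Xist*, the X-inactivation RNA, was counted 5447 and 4235 times in WT against 9 and 6 times in cKO, while the Y-linked *Ddx3y* had 0 and 0 against 525 and 597. Sex-linked expression therefore split with the genotype label, and a difference by genotype and a difference by sex cannot be told apart in any result below. The 7 CD4 T cell markers, among them *Cd4* and *Cd3e*, summed to 5478 to 6161 CPM, and none was called (edgeR quasi-likelihood test, 2 at an unadjusted p under 0.05, none by DESeq2 and none by the likelihood ratio test), though 1 was called without the low-count filter.

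Of the 10 integrin subunits, *Itgav* rose in cKO CD4+ T cells and *Itgae* and *Itga6* fell. Mean *Itgav* went from 53.5 to 89.8 CPM, mean *Itgae* from 31.7 to 16.8 CPM and mean *Itga6* from 254 to 181 CPM. The other 7 subunits did not pass the test (edgeR quasi-likelihood, adjusted p under 0.05). Calls thus covered 1 subunit upward and 2 downward, against a background over all tested genes of 4.3% called, 2.35% higher and 1.95% lower in cKO. The set was chosen with earlier results of these data known, so these shares describe the set and do not test it. The median log2 fold change of the 10 subunits was 0.10, and that of all tested genes was -0.0015. CPM values of the genotypes did not overlap for 7 subunits, with cKO above WT in 4 and below in 3, where 50.3% of all tested genes had no overlap. Leaving out 1 library moved the 3 calls to 1 without WT 1, 0 without WT 2 and 6 without cKO 1, and they stayed at 3 without cKO 2. Summed over the set, the level was 4092 and 4085 CPM for WT against 3980 and 4321 CPM for cKO, so the genotypes overlapped in total integrin subunit RNA.

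**Figure D1:**
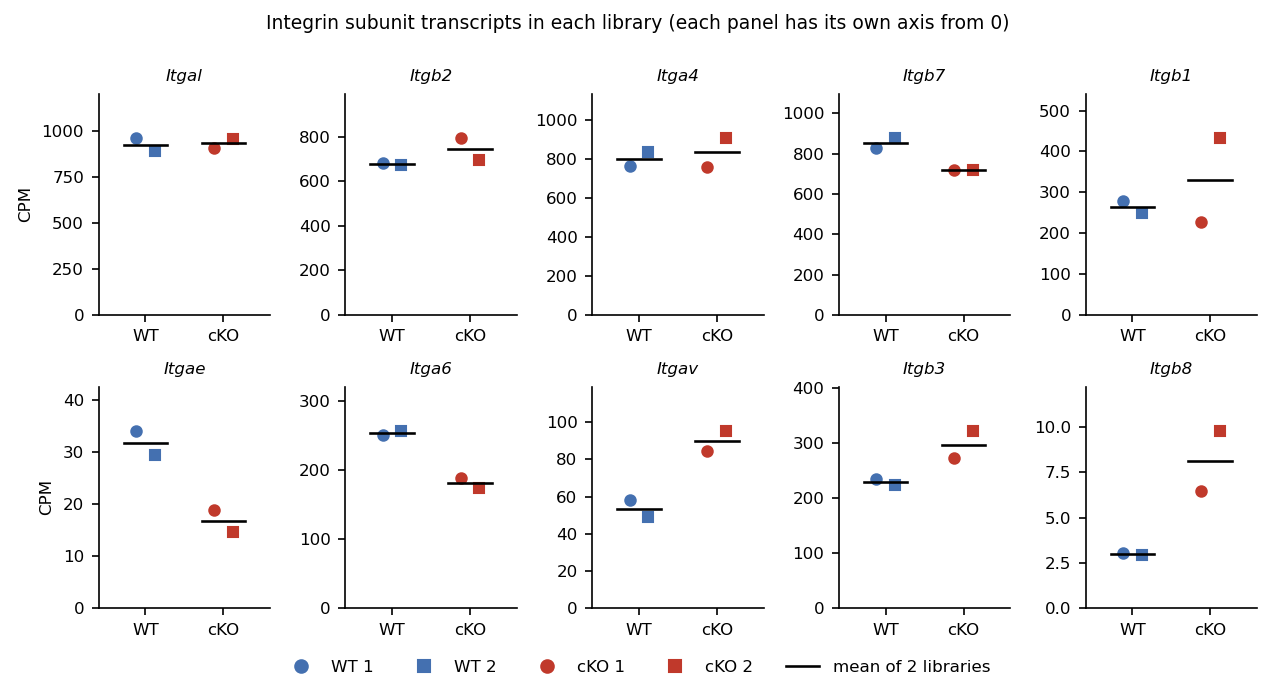
Level of each of the 10 integrin subunits as CPM, in a panel per gene with its own axis from 0, with a point for each of the 2 WT and 2 cKO libraries and a line at each genotype mean. *Itgav* lies higher in both cKO libraries, *Itgae* and *Itga6* lie lower in both, and *Itgb1* spreads most between cKO 1 and cKO 2.

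**Figure D2:**
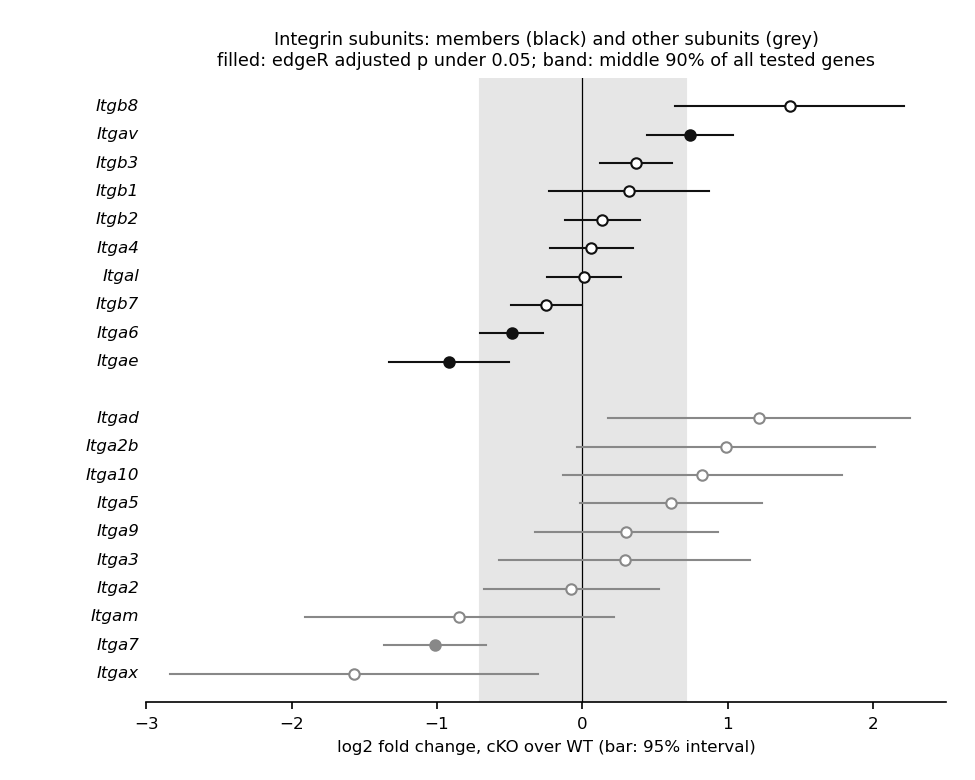
Log2 fold change of cKO over WT for the 10 integrin subunits of the set (black) and the 10 other tested subunits (grey) from the edgeR quasi-likelihood fit, with 95% intervals, filled points for called genes and a band for the middle 90% of all tested genes. In the set, the 3 called subunits are *Itgav* at 0.74, *Itgae* at -0.92 and *Itga6* at -0.49, while *Itgb8* at 1.43 has the widest interval of the set and was not called.

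LFA-1, the alphaLbeta2 integrin that binds ICAM-1 during T cell arrest and synapse formation, is encoded by *Itgal* and *Itgb2*. *Itgal* (chr7:127296260-127335138, plus strand, GRCm38) stood at 963 and 891 CPM in WT and 911 and 956 CPM in cKO. Both cKO values lay inside the WT range, and the log2 fold change was 0.01 (SE 0.11, adjusted p = 0.979), with a fold interval of 0.844 to 1.20. *Itgb2* (chr10:77530252-77565708, plus strand), the beta chain common to the leukocyte beta2 integrins, had 682 and 672 CPM in WT and 794 and 695 CPM in cKO. Although both cKO libraries were above both WT libraries, cKO 2 exceeded WT 1 only narrowly, and the log2 fold change of 0.14 (SE 0.11, adjusted p = 0.565) did not pass the test. Its fold interval ran from 0.921 to 1.31. Leaving out WT 2 or cKO 2 turned the *Itgal* estimate to -0.05 or -0.02.

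The alpha4 chain, encoded by *Itga4*, pairs with beta1 to form VLA-4, the receptor for VCAM-1, or with beta7 to form the gut-homing receptor for MAdCAM-1. *Itga4* (chr2:79255426-79333123, plus strand) had 760.5 and 833 CPM in WT and 759 and 905 CPM in cKO. These ranges overlapped, with a log2 fold change of 0.06 (SE 0.13, adjusted p = 0.839), which became -0.07 without cKO 2. Of the exonic length of *Itga4*, 8.04% lies opposite exons of *Cerkl*, which had 1235, 1055, 989 and 1204 counts in WT 1, WT 2, cKO 1 and cKO 2, and without a stated strand setting reads of the shared stretch cannot be told apart. *Itgb7* (chr15:102215995-102231944, minus strand), the partner of alpha4 and alphaE, had 826 and 877 CPM in WT and 719 and 716 CPM in cKO. Both cKO libraries lay below both WT libraries and nearly coincided. The log2 fold change was -0.25 (SE 0.11, interval -0.49 to -0.01), with an unadjusted p of 0.0460 and an adjusted p of 0.253, so *Itgb7* was not called.

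*Itgb1* (chr8:128685654-128733200, plus strand), the beta chain shared by alpha4, alpha6, alphaV and the collagen and fibronectin receptors, was the subunit that differed most between libraries of 1 genotype. It had 278 and 250.05 CPM in WT, 228 CPM in cKO 1 and 433 CPM in cKO 2. The cKO libraries thus lay on either side of the WT libraries. Their ratio of 1.90 was larger than that of 98.6% of the 9138 tested genes with a mean of at least 10 CPM, among which the median ratio was 1.13 in cKO and 1.08 in WT. Over all 4 libraries the log2 fold change was 0.32 (SE 0.24, adjusted p = 0.529). It was 0.71 (adjusted p = 1.58e-05) without cKO 1 and -0.22 without cKO 2, so a single cKO library set both its size and its sign. In such fits with 1 library in a genotype, edgeR pools the spread and the lone library is assumed to vary like the others.

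*Itgae* encodes the alphaE chain, or CD103, which pairs with beta7 to bind E-cadherin on epithelium and marks tissue-resident and some regulatory T cells. The gene (chr11:73090583-73147446, plus strand) had 222 and 131 counts in WT 1 and WT 2 and 99 and 69 counts in cKO 1 and cKO 2, or 34.0, 29.4, 18.9 and 14.7 CPM. Every cKO value was below every WT value. *Itgae* fell to a fold of 0.529 (interval 0.398 to 0.704), a log2 fold change of -0.92 (SE 0.18, adjusted p = 0.0267). In bulk RNA, fewer cells that carry a transcript and less of the transcript per cell cannot be told apart. Without WT 1 the log2 fold change was -0.80 (adjusted p = 0.0927) and without WT 2 it was -1.02 (adjusted p = 0.0805), so the call was lost in both while the direction held. Over the 12 alternative analyses the adjusted p ranged from 5.37e-05 to 0.0927.

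Markers of other cell classes differed in the same libraries as *Itgae*, some lower and some higher in cKO, and their part in its fall was not tested. Regulatory T cell markers, described further below, summed to 587 and 513 CPM in WT and 1018 and 1230 CPM in cKO, opposite in direction to *Itgae*. The sums of the myeloid and B cell lists below were also higher in both cKO libraries. For flow cytometry, the study names antibodies to B220, CD4 and CD8β among those used for lineage gating. Both CD8 T cell markers were measured, and they summed to 47.7 and 58.5 CPM in WT and 34.3 and 26.8 CPM in cKO. *Cd8b1* fell (42.4, 52.0, 27.4 and 22.5 CPM in WT 1, WT 2, cKO 1 and cKO 2, adjusted p = 0.0201), whereas *Cd8a* had a log2 fold change of -0.07 (adjusted p = 0.941). Of 5 NK cell markers, 4 were tested and *Gzma*, a granule protease, and *Nkg7*, a granule membrane protein, fell, where 1.95% of all tested genes were called lower. *Gzma* had 108, 90, 7 and 2 counts and *Nkg7* 183, 133, 34 and 59, and the list summed to 51.7 and 54.7 CPM in WT and 11.6 and 14.2 CPM in cKO. The defining NK receptor *Ncr1* was at or under the floor in every library, with 2, 0, 3 and 0 counts. Against the same 1.95%, 3 of 8 activated or memory T cell markers fell, including the chemokine *Ccl5* (log2 fold change -1.38) and *Tbx21*, the Th1 factor T-bet (-1.05), though the list's sum of 475 and 408 CPM in WT overlapped the 388 and 459 CPM in cKO. Another 3 of the 8 had estimates above 0 and were not called, *Maf* (log2 fold change 0.53), *Icos* (0.14) and *Cd44* (0.0035). Of 7 naive T cell markers, the homing receptor *Ccr7* fell (log2 fold change -0.62, adjusted p = 0.0199) and the IL-7 receptor *Il7r* rose (1.04, adjusted p = 0.0257), and their sum ran from 5860 to 7702 CPM with overlapping genotypes.

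*Itga6* encodes the alpha6 chain, a laminin receptor with beta1 or beta4 that naive T cells carry. The gene (chr2:71745616-71858416, plus strand) had 1638, 1145, 986 and 817 counts in WT 1, WT 2, cKO 1 and cKO 2, or 250.5, 257, 188 and 174 CPM. Its WT libraries were close together, and both cKO libraries were clearly lower. *Itga6* fell to a fold of 0.713 (interval 0.613 to 0.830), a log2 fold change of -0.49 (SE 0.10, adjusted p = 0.0267). Its other beta partner, *Itgb4*, had 2, 6, 3 and 2 counts and was not tested, which left *Itgb1* as the partner with a measurable level. Without WT 1 the log2 fold change of *Itga6* was -0.50 (adjusted p = 0.123) and without WT 2 it was -0.47 (adjusted p = 0.295), so the size held and the call did not. The adjusted p over the 12 alternatives ran from 0.000404 to 0.295.

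The alphaV chain binds matrix and latent TGF-beta with beta1, beta3, beta5, beta6 or beta8. *Itgav* (chr2:83724397-83806916, plus strand) had 380, 218, 443 and 448 counts in WT 1, WT 2, cKO 1 and cKO 2, or 58.1, 48.8, 84.4 and 95.2 CPM. Both cKO libraries lay above both WT libraries. *Itgav* rose by a fold of 1.67 (interval 1.36 to 2.05), a log2 fold change of 0.74 (SE 0.13, adjusted p = 0.0169). The call was lost without WT 2, where the log2 fold change was 0.62 (adjusted p = 0.212), and the adjusted p over the 12 alternatives ran from 2.95e-05 to 0.212. Exons of *Gm13684* lie opposite 5.90% of the exonic length of *Itgav*, and that gene had 5, 1, 1 and 2 counts.

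The genes for beta3 and beta8, both partners of alphaV, were also higher in each cKO library than in each WT library, without passing the test. *Itgb3* (chr11:104608000-104670476, plus strand), whose chain forms the vitronectin receptor with alphaV and the platelet fibrinogen receptor with alphaIIb, had 236 and 225 CPM in WT and 272 and 322 CPM in cKO. The log2 fold change was 0.37 (SE 0.11, interval 0.12 to 0.62), with an unadjusted p of 0.00892 and an adjusted p of 0.108. *Itgb8* (chr12:119158022-119238802, minus strand), whose chain with alphaV activates latent TGF-beta on regulatory T cells, was the scarcest subunit at 20, 13, 34 and 46 counts in WT 1, WT 2, cKO 1 and cKO 2. Those counts equal 3.06, 2.91, 6.48 and 9.78 CPM, so the genotypes did not overlap. Its log2 fold change was 1.43 (SE 0.35, interval 0.64 to 2.21), with an unadjusted p of 0.00282 and an adjusted p of 0.0584. Without cKO 1 both passed, *Itgb3* at 0.48 (adjusted p = 0.000702) and *Itgb8* at 1.70 (adjusted p = 0.00666), and without any other single library neither did, with adjusted p of up to 0.627 and 0.297. Over the 12 alternatives *Itgb3* was called in 3 and *Itgb8* in 4. Of the other alphaV partners, *Itgb5* had 3, 2, 14 and 6 counts and was not tested, and *Itgb6* had 0 counts in all 4 libraries.

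Regulatory T (Treg) cell markers were higher in the same libraries as the alphaV genes, while the CD8 and NK lists above were lower. The part of any list in the differences of the alphaV genes was not tested. *Foxp3*, which specifies Treg cells, had 926 and 538 counts in WT and 2127 and 2573 counts in cKO, a log2 fold change of 1.86 (SE 0.16, adjusted p = 0.000447). The study reports that SATB1 loss derepresses *Foxp3* in conventional CD4+ T cells, which gained no suppressive activity. *Foxp3* RNA in these libraries is therefore no measure of the number of Treg cells. In its own analysis of these cells the study found other Treg signature genes not significantly different. All 9 Treg markers had a log2 fold change above 0, as had 6172 of all 12403 tested genes, and 5 rose, where 2.35% of all tested genes were called higher, including the costimulatory receptor *Tnfrsf4* (0.75, adjusted p = 0.0264) and *Nrp1* (0.75, adjusted p = 0.0203). Some of these genes are ones the study itself displays from these samples, so the list is not independent evidence of a direction. Summed over the list, *Foxp3* included, the level was 587 and 513 CPM in WT and 1018 and 1230 CPM in cKO. Against the same 2.35%, 3 of 10 myeloid markers rose, the neutrophil protein *S100a9* (0, 1, 51 and 24 counts), lysozyme *Lyz2* (14, 12, 119 and 42) and the oxidase subunit *Cybb* (36, 30, 69 and 73), while *Itgam* (log2 fold change -0.85), *Itgax* (-1.57) and *Cd68* (-0.29) had estimates below 0 and were not called, and the list summed to 40.7 and 49.7 CPM in WT and 107 and 62.5 CPM in cKO. Of 8 B cell markers, 3 were tested and the B lineage factor *Pax5* rose (5, 4, 53 and 15 counts), with sums of 14.1, 15.2, 57.5 and 23.6 CPM. Platelet markers, which bear on *Itgb3*, summed to 6.12, 7.39, 8.57 and 8.71 CPM over 9 genes, with *Gp1bb* and *Treml1* at 0 and 5 genes at or under the floor in every library. Endothelial or stromal markers summed to 1.06 to 2.24 CPM over 7 genes, with *Kdr*, *Col3a1* and *Lyve1* at 0. The 6 erythroid markers summed to 101, 314, 10.1 and 222 CPM and overlapped between genotypes for every gene. No platelet or erythroid gene was called (edgeR quasi-likelihood test, none at an unadjusted p under 0.05, none by DESeq2 and none by the likelihood ratio test), though 2 erythroid genes were called without the low-count filter and 2 with a replicate block.

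**Figure D3:**
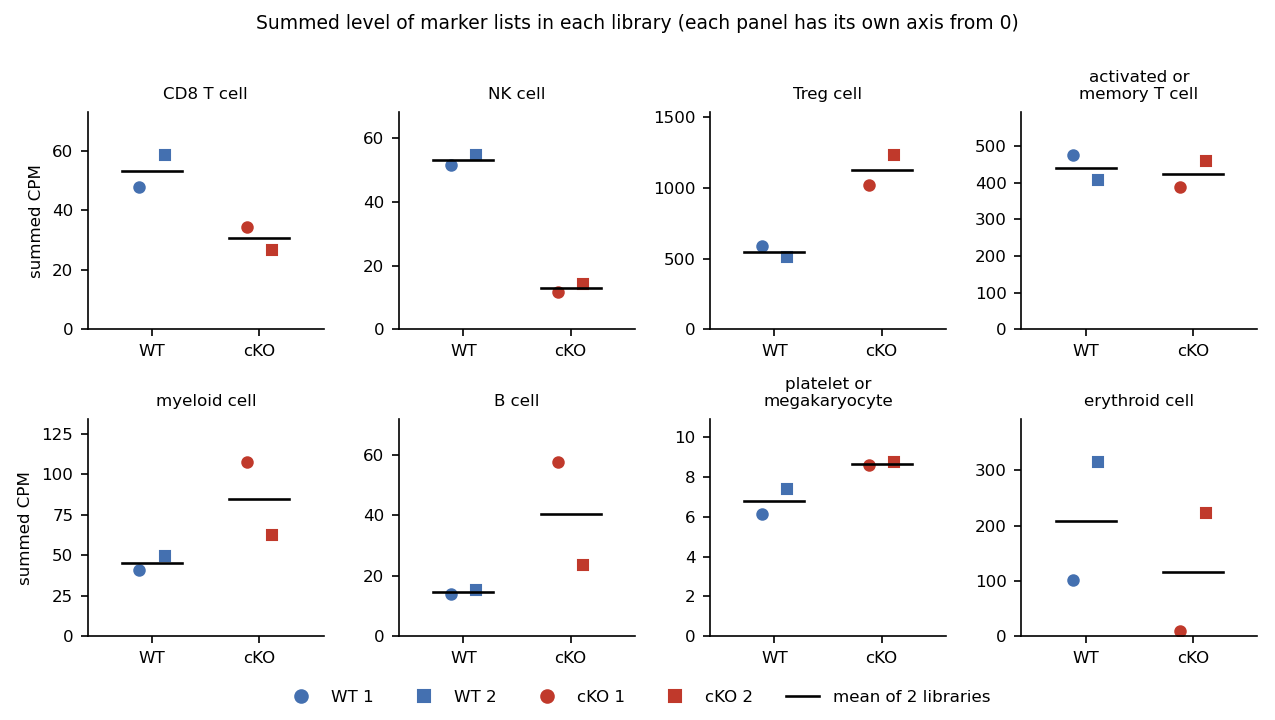
Summed CPM of 8 marker lists, in a panel per list with its own axis from 0, with a point for each of the 2 WT and 2 cKO libraries and a line at each genotype mean. The Treg list sits at 1018 and 1230 CPM in cKO above 587 and 513 CPM in WT, and the NK and CD8 lists lie lower in both cKO libraries, while the activated or memory and erythroid lists overlap. Most of the CD8 sum is *Cd8b1*, and the genotypes overlapped for *Cd8a*.

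RefSeq promoter windows on GRCm38.p6, the 250 bases before the start that RefSeq gives, were read for 5 of the 10 subunits, *Itga4*, *Itgb1*, *Itgb7*, *Itgav* and *Itgb8*. Those of *Itgav*, which rose, and of *Itga4*, an alpha chain on the same chromosome that was not called, are shown as a pair because they are similarly rich in G and C and hold different motifs. The window of *Itgav* spans chr2:83724147-83724396 and that of *Itga4* spans chr2:79255176-79255425, both on the plus strand and written from the 5′ end. Capitals mark matches on either strand to GGAAGT (a longer form of the GGAA core bound by ETS factors) in *Itgav*, and to GGGCGG (GC box) and TGTGGT (RUNX core) in *Itga4*. Stretches of GGAA alone were not searched or marked.
Itgav: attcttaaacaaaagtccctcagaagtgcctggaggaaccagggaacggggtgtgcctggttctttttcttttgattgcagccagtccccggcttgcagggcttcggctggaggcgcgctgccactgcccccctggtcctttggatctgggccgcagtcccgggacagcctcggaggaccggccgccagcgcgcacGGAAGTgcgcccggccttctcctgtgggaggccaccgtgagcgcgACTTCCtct
Itga4: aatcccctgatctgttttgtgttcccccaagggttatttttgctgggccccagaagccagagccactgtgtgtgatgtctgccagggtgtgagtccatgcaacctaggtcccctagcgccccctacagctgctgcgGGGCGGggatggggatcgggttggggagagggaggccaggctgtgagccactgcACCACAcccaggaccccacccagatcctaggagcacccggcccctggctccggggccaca
Both windows lacked the TATA box (TATAAA), and the AP-1 site, searched as TGANTCA, was likewise missing from these bases. The *Itgav* window held 2 matches to GGAAGT, 1 on each strand and at separate places, and 18 CG pairs at 64.4% G and C. In *Itga4* there was 1 match each to GGGCGG and TGTGGT, with 6 CG pairs at 64.0% G and C. Over all 32536 distinct windows of that length, 19.8% held GGAAGT, 33.0% GGGCGG, 14.0% TGTGGT, 12.3% TATAAA and 6.73% TGANTCA, and the medians were 6 CG pairs and 52.4% G and C. The window of *Itgb1*, with 21 CG pairs, held 1 GC box, and those of *Itgb7* (5 CG pairs) and *Itgb8* (12 CG pairs) held none of these motifs. All 250 bases of the *Itgb8* window and 9 bases of the *Itgb7* window lie in exons of the GENCODE annotation, so by that annotation the *Itgb8* window is not upstream of the gene's start. The motifs were picked with the expression results known, and a match describes letters in a window and no bound factor.

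Levels were compared between subunits as CPM per kb of exonic length. On this scale *Itgb7* was highest in WT at 307 ± 13.0 CPM per kb (SD, n = 2), ahead of *Itgb2* at 222 ± 2.54 and *Itgal* at 141 ± 7.73. *Itgb1* (64.7 ± 4.83), *Itga4* (57.0 ± 3.68), *Itgb3* (39.0 ± 1.32) and *Itga6* (28.1 ± 0.471) formed the middle of the WT order. *Itgae* (6.91 ± 0.711), *Itgav* (4.98 ± 0.611) and *Itgb8* (0.270 ± 0.00936) were lowest. No neighbours in the WT order overlapped between libraries. Over all 4 libraries the highest mean was 564 times the lowest.

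In cKO the order was the same but for a single exchange, since *Itgav* at 8.36 ± 0.712 CPM per kb (SD, n = 2) stood above *Itgae* at 3.66 ± 0.648. The level of *Itgav* over that of *Itgae* was 0.730 and 0.710 in WT against 1.91 and 2.77 in cKO, so per kb every WT library had more *Itgae* and every cKO library more *Itgav*. With longest-transcript lengths in place of union exonic lengths the ratios were 0.933, 0.907, 2.44 and 3.54, on the same sides of 1. In cKO, 3 pairs of neighbours overlapped between libraries and did not differ beyond their spread, *Itgb7* (259 ± 0.677) with *Itgb2* (244 ± 22.9), *Itgb1* (80.9 ± 35.6) with *Itga4* (59.5 ± 7.42), and *Itga4* with *Itgb3* (50.4 ± 5.94).

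**Figure D4:**
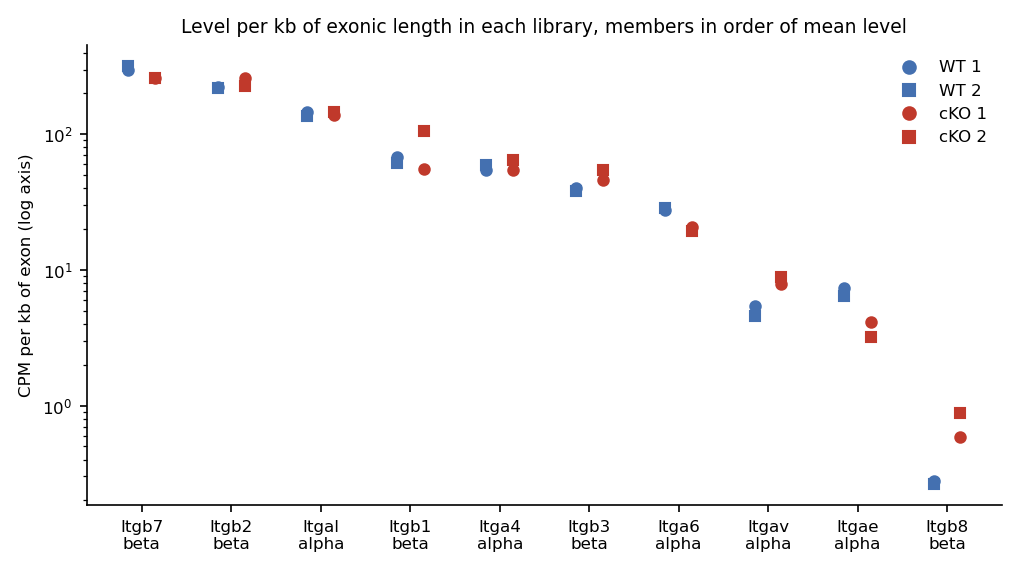
Level of each integrin subunit in CPM per kb of exonic length on a log axis, ordered by the mean over 4 libraries, with a point for each library. *Itgb7*, *Itgb2* and *Itgal* lie at the top and *Itgb8* at the bottom, and *Itgav* and *Itgae* exchange places between WT and cKO.

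Ratios of subunit levels per kb described how potential partners stood to each other within a library. With 2 libraries against 2, the smallest exact two-sided permutation p is 0.333, so that test cannot pass here and the ratios are given as a description. For LFA-1, *Itgal* over *Itgb2* was 0.656 and 0.617 in WT and 0.533 and 0.639 in cKO, which overlapped. Both alpha4 and alphaE can pair with beta7, and *Itga4* over *Itgb7* was 0.182 and 0.188 in WT and 0.209 and 0.251 in cKO. *Itgae* over *Itgb7* was 0.0248 and 0.0202 in WT and 0.0159 and 0.0124 in cKO, so relative to *Itgb7* RNA, *Itgae* RNA was lower and *Itga4* RNA higher in both cKO libraries. Their quotient, *Itga4* over *Itgae*, was 7.34 and 9.30 in WT and 13.2 and 20.2 in cKO.

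Among the alphaV genes, *Itgav* over *Itgb3* was 0.136 and 0.119 in WT and 0.170 and 0.162 in cKO. *Itgav* over *Itgb8* went the other way, at 19.6 and 17.3 in WT and 13.4 and 10.03 in cKO, with alphaV RNA in excess of beta8 RNA in every library. Between the alpha chains that moved in opposite directions, *Itgav* over *Itga6* was 0.195 and 0.160 in WT and 0.377 and 0.461 in cKO, with no overlap. *Itga6* over *Itgb1* was 0.408 and 0.464 in WT and 0.373 and 0.181 in cKO. Ratios that contain *Itgb1* carried its spread in cKO, as also in *Itga4* over *Itgb1* at 0.799 and 0.973 in WT and 0.973 and 0.611 in cKO. All alpha chains over all beta chains of the set stayed within 0.363 to 0.383 in the 4 libraries.

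**Figure D5:**
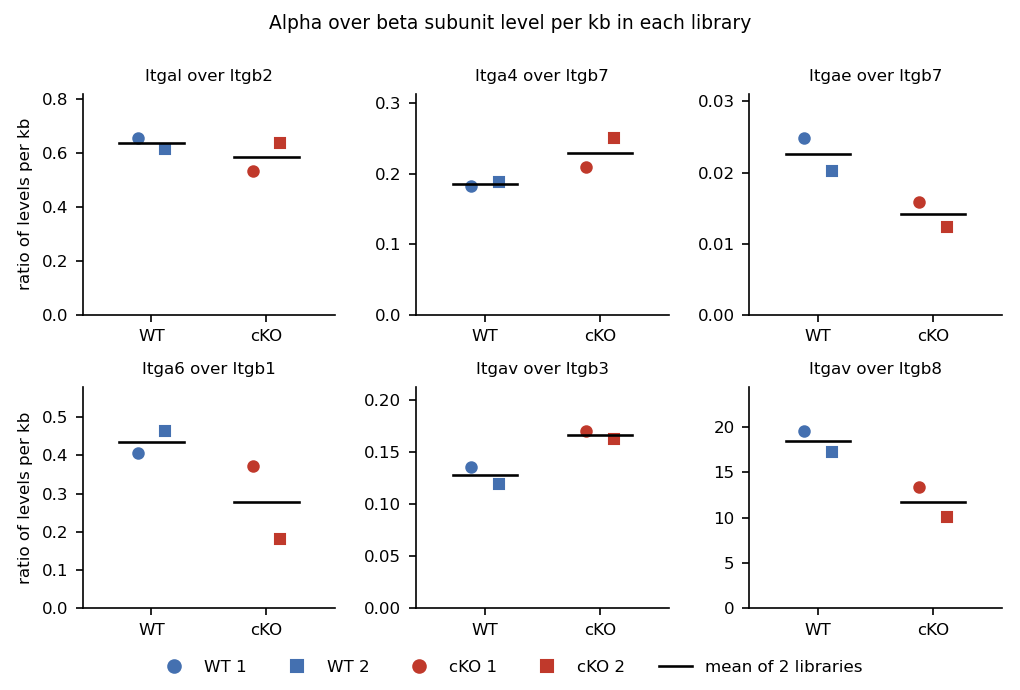
Ratio of an alpha to a beta subunit level per kb for 6 pairs, in panels with their own axes from 0, with a point for each of the 2 WT and 2 cKO libraries and a line at each genotype mean. *Itgae* over *Itgb7*, *Itga6* over *Itgb1* and *Itgav* over *Itgb8* lie lower in both cKO libraries, *Itga4* over *Itgb7* and *Itgav* over *Itgb3* lie higher, and *Itgal* over *Itgb2* overlaps.

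The other 16 mouse integrin subunits were scarce in these cells, summing to 72.1 to 91.2 CPM, against 3980 to 4321 CPM for the 10 above. Of them 10 were tested, and *Itga7*, a laminin receptor chain best known from muscle, fell, with 286, 188, 123 and 89 counts in WT 1, WT 2, cKO 1 and cKO 2. Its levels were 43.7 and 42.1 CPM in WT and 23.4 and 18.9 CPM in cKO, a fold of 0.494 and a log2 fold change of -1.02 (SE 0.15, adjusted p = 0.00949), and it was called under all 12 alternatives. The fibronectin receptor chain *Itga5*, at 43, 47, 65 and 62 counts, had a log2 fold change of 0.61 (adjusted p = 0.274). Chains of other leukocytes included *Itgad* at 17, 19, 56 and 22 counts (adjusted p = 0.194), the dendritic cell chain *Itgax* at 19, 23, 10 and 3 (adjusted p = 0.168) and the myeloid chain *Itgam* at 14, 10, 7 and 5 (adjusted p = 0.374), whose exons overlap those of *Gm49368* on the same strand. *Itga2b*, the platelet partner of beta3, had 14, 5, 20 and 14 counts (adjusted p = 0.280). The remaining tested subunits, none of them called, were *Itga2* (78, 36, 51 and 45 counts), *Itga9* (49, 26, 46 and 37), *Itga3* (22, 21, 20 and 28) and *Itga10* (13, 10, 15 and 22). *Itga1*, a collagen receptor chain, had 11, 13, 5 and 3 counts and was not tested, *Itga11* was at or under the floor, and *Itga8* was at 0. Their median log2 fold change of 0.30 thus rests largely on low counts.

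Genes that switch integrins on or tie them to actin showed no call. Of 31 listed genes, from talin (*Tln1*) and kindlin-3 (*Fermt3*) to *Rap1b* and *Skap1*, 28 were tested and none was called by the edgeR quasi-likelihood test, by DESeq2 or by the likelihood ratio test, with 1 at an unadjusted p under 0.05. The genotypes did not overlap for 8 of the 28, where 50.3% of all tested genes had no overlap, and the median log2 fold change was -0.02. The gene with the smallest p was *Ilk*, the integrin-linked kinase at beta chain tails, with 159 and 162 CPM in WT and 134 and 131 CPM in cKO, a log2 fold change of -0.28 (SE 0.10, adjusted p = 0.158). *Fermt2*, the kindlin of adherent cells, was at 0 counts in every library.

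Ligands and membrane partners of integrins were listed as 18 genes, of which 9 were tested and 3 rose, where 2.35% of all tested genes were called higher. *Vcam1*, the ligand of alpha4beta1, had 37 and 26 counts in WT and 180 and 57 counts in cKO, a log2 fold change of 2.03 (SE 0.45, adjusted p = 0.0435), which was 1.07 without cKO 1 and lost its call without WT 2 and after thinning to the smallest library. Of 4 tested tetraspanins, membrane proteins that sit beside integrins, 2 rose, *Cd81* from 52.6 and 49.1 CPM to 104.0 and 75.9 CPM (adjusted p = 0.0243) and *Cd9* from 66.5 and 66.3 CPM to 109 and 92.9 CPM (adjusted p = 0.0265). *Cd82* (log2 fold change 0.27, adjusted p = 0.184) and *Cd151* (0.27, adjusted p = 0.509) did not pass the test. Of the 9 tested genes 4 had estimates below 0 and none of them was called, among them the LFA-1 ligand *Icam1* (log2 fold change -0.37), the membrane protein *Cd47* (-0.27) and the laminin chain *Lamc1* (-0.56), each lower in both cKO libraries. The calls of *Cd81* and *Cd9* were lost without WT 2, and that of *Cd9* also without WT 1. The B cell and myeloid sums given above were likewise highest in cKO 1, the library with the most *Vcam1*, and their part in these levels was not tested.

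TGF-beta activation and response genes were listed because alphaVbeta8 frees TGF-beta and TGF-beta is known to induce *Itgae*. Of 19 genes, 17 were tested, none was called by the edgeR quasi-likelihood test or by DESeq2, 2 were at an unadjusted p under 0.05, and the likelihood ratio test called 1, as did the fit with a replicate block, while 2 were called without the low-count filter. Their median log2 fold change was 0.06. The smallest p belonged to *Furin*, the protease that cleaves the TGF-beta precursor, at 86.3 and 82.0 CPM in WT and 131 and 102 CPM in cKO (log2 fold change 0.47, SE 0.14, adjusted p = 0.0979). *Tgfb1*, the cytokine itself (log2 fold change 0.14, adjusted p = 0.521), and *Lrrc32*, which presents latent TGF-beta on Treg cells (0.40, adjusted p = 0.421), did not pass the test.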

How the data were processed

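RNA from sorted splenic CD4+ T cells was sequenced in 4 libraries, 2 labelled WT and 2 labelled *Satb1* conditional knockout. The authors aligned reads to mm10 with HISAT2 2.1.0 and counted them per gene with HTSeq 0.11.1, per the submitters' processing notes, and deposited unscaled counts for 55367 gene symbols. The annotation and strand setting are not given in the sources used here. Reads shared between genes or placed more than once are left out of such counts. HTSeq summary lines were kept out of library sizes and tests. Reads outside any gene feature were 59.4% to 64.5%, and reads on several features 0.611% to 0.734%, of those assigned, ambiguous or outside features.

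Gene totals were 4495902 to 6555699 per library. Counts were tested in R 4.3.3 with edgeR 4.0.16 (filterByExpr, TMM factors 1.00, 0.997, 0.981 and 1.02, two-sided quasi-likelihood F test on the genotype label, Benjamini-Hochberg adjustment over 12403 genes, called at an adjusted p under 0.05). CPM used TMM-scaled sizes. Intervals at the 0.95 level hold only the counting error and the differences among these 4 libraries, and without molecular identifiers a read need not be a separate molecule. Lengths and positions came from GENCODE M21 (GRCm38), where 53365 symbols were found, and promoters from RefSeq GRCm38.p6. Figures were drawn with matplotlib 3.10.9. The fit was tested on simulated counts.

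All 10 subunits were named. Of the other lists, every other integrin subunit with at least 3 counts in a library was named, as were up to 3 called genes per direction with the largest change, or the gene with the smallest p where none was called, except for 1 gene that is not reported here. Other genes named from the lists were picked for their role or after their values were seen. The members and lists were chosen with earlier results of these data known. Alternatives were DESeq2 1.42.0, the likelihood ratio test, other scalings and filters, thinning to 4495902 counts, a replicate block, a threshold of 0.01, other gene lengths, and leaving out each library.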

Additional observations from a re-analysis of the deposited data

How the results depend on the processing

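*Itgav*, *Itgae* and *Itga6* kept their direction under all 12 alternative fits and were called in 11, 10 and 10 of them. The 533 genes called became 1367 without a low-count filter, 1096 by the likelihood ratio test, 1165 with a replicate block and 153 at an adjusted p under 0.01, and 180 to 1790 when 1 library was left out (180 without WT 2, 1491 without cKO 1 and 1790 without cKO 2). The 3 subunits called became 5 without the filter, 5 with the block and 0 at an adjusted p under 0.01, and 0 to 6 when 1 library was left out (0 without WT 2, 1 without WT 1 and 6 without cKO 1). *Itgb3* passed without the filter (0.36, adjusted p = 0.0296) and with the block (0.36, adjusted p = 0.0441), and *Itgb8* passed without the filter (1.42, adjusted p = 0.000967), by the likelihood ratio test (1.43, adjusted p = 0.00382) and with the block (1.39, adjusted p = 0.0172). For each of these, the cause was not tested. Same-numbered libraries share only a number (correlation of deviations 0.0642 over 2 pairs), and the block changed no other subunit's call. When 1 library was left out, log2 fold changes ran from -0.049 to 0.073 for *Itgal*, 0.04 to 0.23 for *Itgb2*, -0.068 to 0.18 for *Itga4*, -0.22 to 0.71 for *Itgb1*, -0.28 to -0.21 for *Itgb7*, -1.12 to -0.75 for *Itgae*, 0.62 to 0.88 for *Itgav*, 0.24 to 0.48 for *Itgb3*, 1.11 to 1.70 for *Itgb8* and -0.55 to -0.43 for *Itga6*, and their median from -0.046 to 0.12. In the order of levels per kb, 6 of 10 subunits kept their place with longest-transcript or coding-transcript lengths, as *Itga4* exchanged with *Itgb1* and *Itgb3* with *Itga6*. Depth limits *Itgb8*, at 13 to 46 counts, most among the subunits.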
